A study of Homo sapiens with 6 samples.

Results

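Small nucleolar RNAs (snoRNAs) and small Cajal body RNAs (scaRNAs) were examined in the core and the margin of human breast cancer xenografts. Candidate genes were the rows whose Ensembl identifier belongs to a symbol starting with SNORD, SNORA or SCARNA, and members were selected on their measured values: more than 1 TPM (a transcript level that is corrected for length and scaled to one total per sample) in at least 2 of the 6 samples. This rule kept 31 of 553 candidate rows, in a matrix of 60930 rows of which 60671 were annotated genes. The members were 4 of 314 box C/D genes (SNORD), 18 of 214 box H/ACA genes (SNORA) and 9 of 25 Cajal body genes (SCARNA). The names describe gene families and carry no evidence of function in these tumours.

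RNA was sequenced from 6 tumour samples. MDA-MB-231, a wild-type human triple-negative breast cancer line, had been injected orthotopically, into the mammary fat pads, without any other treatment or allele, and the hosts were female NSG mice aged 6 to 8 weeks. NSG mice lack B, T and natural killer cells but keep stromal and myeloid cells, and all 6 samples come from this one line and host. The groups were the tumor core (TC, n = 3) and the tumor margin (TM, n = 3), which the study separated to compare the metabolism of the zones. The study's legend speaks of 3 mice per group, and whether a core and a margin came from the same mouse was not stated.

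Box C/D snoRNAs guide ribose methylation and box H/ACA snoRNAs guide pseudouridylation of ribosomal RNA in the nucleolus, while scaRNAs guide the same modifications on spliceosomal RNAs in Cajal bodies. A few of them, U3 and U17 among these, instead take part in the cleavage of the ribosomal precursor. Most are cut from introns of host genes after splicing, and the mature RNAs carry no poly(A) tail. The labels name total RNA and a TruSeq RNA kit, and the sources used here did not state whether polyadenylated RNA was selected or ribosomal RNA removed.

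The sequences of 7 members are given because the results below turn on their levels, their length or their likeness to each other. They were taken from GENCODE release 29 (GRCh38) and are written 5′ to 3′ on the strand of the gene. In the SNORD3A entry, capitals mark each match to the C box letters TGATGA and to the D box letters CTGA near the end. In the SNORA entries they mark H box letters (ANANNA) in the middle of the gene and an ACA close to the end. In the SCARNA entries they mark each TGAG, the letters of the CAB box, a short signal that retains H/ACA scaRNAs in Cajal bodies.
SNORD3A: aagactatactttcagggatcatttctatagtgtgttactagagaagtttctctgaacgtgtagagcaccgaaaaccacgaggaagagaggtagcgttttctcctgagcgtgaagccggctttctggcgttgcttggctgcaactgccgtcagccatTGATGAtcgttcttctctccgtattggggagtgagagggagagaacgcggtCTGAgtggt
SNORA53: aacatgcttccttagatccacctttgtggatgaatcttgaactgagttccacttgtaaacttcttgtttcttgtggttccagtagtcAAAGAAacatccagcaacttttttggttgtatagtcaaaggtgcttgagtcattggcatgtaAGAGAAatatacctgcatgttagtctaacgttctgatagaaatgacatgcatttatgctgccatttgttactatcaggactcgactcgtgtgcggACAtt
SNORA12: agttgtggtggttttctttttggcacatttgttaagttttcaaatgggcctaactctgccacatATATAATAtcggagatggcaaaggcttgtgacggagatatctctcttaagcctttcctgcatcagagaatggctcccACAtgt
SNORA73A: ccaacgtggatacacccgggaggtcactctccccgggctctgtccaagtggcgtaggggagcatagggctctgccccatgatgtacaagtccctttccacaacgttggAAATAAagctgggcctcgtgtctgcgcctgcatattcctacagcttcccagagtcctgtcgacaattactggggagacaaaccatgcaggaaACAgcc
SNORA73B: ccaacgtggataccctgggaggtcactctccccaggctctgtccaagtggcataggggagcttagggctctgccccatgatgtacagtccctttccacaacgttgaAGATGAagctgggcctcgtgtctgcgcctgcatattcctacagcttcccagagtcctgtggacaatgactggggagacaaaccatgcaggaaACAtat
SCARNA12: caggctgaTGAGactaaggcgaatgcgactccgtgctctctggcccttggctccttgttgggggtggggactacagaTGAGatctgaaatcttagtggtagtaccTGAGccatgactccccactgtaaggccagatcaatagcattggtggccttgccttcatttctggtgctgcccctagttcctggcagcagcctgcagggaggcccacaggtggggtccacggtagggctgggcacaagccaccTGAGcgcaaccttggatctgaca
SCARNA16: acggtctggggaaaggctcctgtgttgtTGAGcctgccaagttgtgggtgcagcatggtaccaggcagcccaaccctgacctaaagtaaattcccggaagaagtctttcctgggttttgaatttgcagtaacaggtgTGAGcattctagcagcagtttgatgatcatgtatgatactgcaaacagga
SNORD3A lies at chr17:19188016-19188714 on the plus strand and has 3 annotated transcripts, of which the shortest (217 nt, U3) is printed. SNORA53 lies at chr12:98599635-98599883 (plus) and SNORA12 at chr10:100237156-100237302 (minus). SNORA73A and SNORA73B are neighbours at chr1:28507366-28507571 and chr1:28508559-28508762, both on the plus strand. SCARNA12 lies at chr12:6967337-6967606 (minus) and SCARNA16 at chr17:77089307-77089493 (plus).

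TGATGA was found in 3 of 4 C/D members and in 73.9% of the 314 annotated C/D genes, and CTGA within the last 15 bases in 4 of 4 and 91.1%. An ACA that left 2 to 5 bases to the end was found in 15 of 18 H/ACA members and in 74.7% of the 213 H/ACA genes with a sequence. ANANNA between 30% and 70% of the length was found in 16 of 18 members and 93.0% of the genes. TGAG stood in 8 of 9 Cajal body members and in 72.0% of the 25 SCARNA genes, but also in 42.3% of the SNORA and 84.4% of the SNORD genes, so these 4 letters do not mark a class. The searches covered the transcribed strand, and a match is a description of the letters.

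By median length, members were longer than the other candidates among the C/D and Cajal body genes, but hardly so among the H/ACA genes. The length of a gene is here that of its longest annotated transcript. SNORD3A, SNORD3B-2 and SNORA71B count as 250 nt or more by this length, though their shortest transcripts have 217, 217 and 134 nt. The shortest candidate above 0 TPM in any sample was 125 nt long, and 317 of the 552 candidates with an annotated length were shorter. Of the 235 candidates of 125 nt or more, 61 were above 0 in at least 1 sample. From 125 to 149 nt, 39 of 183 candidates were above 0 (21.3%) and 15 were members. From 150 to 249 nt, 10 of 38 were above 0 (26.3%) and 7 were members. At 250 nt or more, 12 of 14 were above 0 (85.7%) and 9 were members. The share pooled over the classes thus rose with each step in length. That of the C/D genes did not, with 4 of 8, 2 of 10 and 2 of 4 above 0. The H/ACA genes had 32 of 160, 6 of 26 and 2 of 2 above 0, and the Cajal body genes 3 of 15, 2 of 2 and 8 of 8. As 8 of the 14 longest candidates were Cajal body genes, the pooled rise does not separate length from class. Over the whole matrix, 41 of 5732 annotated genes shorter than 125 nt were above 0 (0.715%), against 28460 of 52662 genes of at least that length (54.0%), most of which are no small RNA genes. Other small RNA genes did not start at this length, with 27 of 2212 above 0 from 100 to 124 nt (1.22%) and 15 of 402 from 125 to 149 nt (3.73%).

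**Figure D1:**
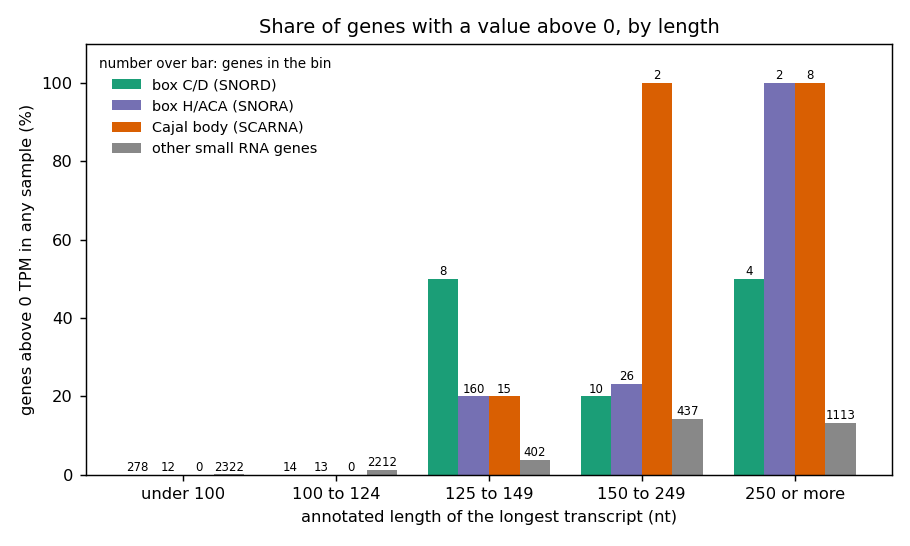
Share of genes above 0 TPM in any of the 6 samples (vertical axis, percent) by annotated length in nucleotides, for the C/D, H/ACA and Cajal body genes and for other small RNA genes, with the number of genes over each bar. The bars of these 3 classes start at 125 nt, the length of their shortest gene above 0, and the Cajal body genes of 250 nt or more are all above 0 in some sample.

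The classes differed in how many of their genes were long enough to lie beyond this edge. Among the C/D genes, 278 of 314 were shorter than 100 nt. By the longest annotated transcript, the members had a median length of 460.5 nt against 80.5 nt for the other C/D rows. The shortest transcripts of SNORD3A and SNORD3B-2 have 217 nt, that of SNORD91B has 95 nt, and that of SNORD15B has 146 nt. By its shortest transcript, SNORD91B would thus lie below this edge. The H/ACA members and the other H/ACA rows were alike in length, with medians of 137 and 133 nt. The Cajal body members had a median of 270 nt and the other SCARNA rows one of 135.5 nt. Among genes of 125 nt or more, 4 of 22 C/D genes (18.2%), 18 of 188 H/ACA genes (9.57%) and 9 of 25 Cajal body genes (36.0%) were members. The study's methods describe a selection of the cDNA libraries by size on agarose, for fragments of a target length. How far the length limit comes from the library and how far from the quantification was not tested.

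Of the 522 candidates that are no members, 492 were listed at 0 in all 6 samples, 28 were above 1 TPM in exactly 1 sample and 2 were above 0 without passing 1 TPM. Just inside the rule lay SCARNA7, whose second-highest value was 1.08 TPM, SNORA71B at 1.22 and SCARNA6 at 1.31. Just outside lay SCARNA10 at 0.93 TPM and SNORA59B at 0.21. The rule also left out high single values, such as SNORA77B with 153.54 TPM in TC replicate 3 and 0 elsewhere. Other copies of U3 (the genes SNORD3B-1, SNORD3C and SNORD3D) were listed at 0 in all samples. Of the other C/D RNAs with a role in cleavage of the ribosomal precursor, SNORD118 (U8) had 9.68 TPM in TC replicate 3 alone, 1 of 2 SNORD22 rows had 37.06 TPM in TM replicate 2 alone, and SNORD13 and the SNORD14 copies were listed at 0 throughout.

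Most members were found in few samples. Of the 31 members, 18 were above 1 TPM in exactly 2 samples, 3 in 3 samples, 2 in 4, 8 in 5 and 0 in all 6. SCARNA13, SCARNA7 and SCARNA9 were the 3 members above 0 in every sample. Among the 186 member values, 86 were listed at 0 (46.2%), against 0.569% of the values of the 13861 genes tested below. Those genes had to reach 1 TPM in 3 or more samples, a stricter filter than the rule of the members. Of the 14644 genes above 1 TPM in at least 2 samples, 605 were listed at 0 in some sample, against 28 of the 31 members. The 15 members shorter than 150 nt had 57.8% of values at 0 and a median of 28.99 TPM over the values above 0. The 9 members of 250 nt or more, by their longest transcript, had 27.8% at 0 and a median of 2.77 TPM over those above 0. Short members were thus more often at 0 and, where above 0, stood at a higher TPM than long members. TPM is divided by length, so a given number of reads stands for a higher TPM in a shorter gene. The sums and the order of mean levels below carry this too.

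**Figure D2:**
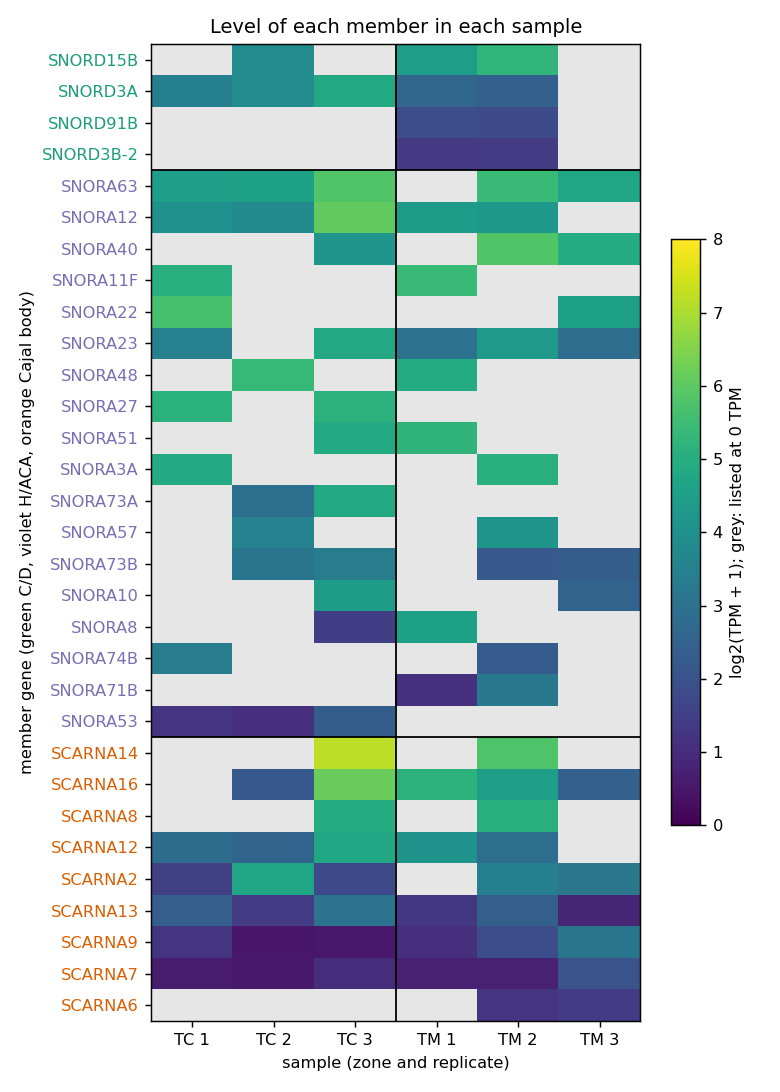
Level of each of the 31 members (rows, by class and mean level) in each of the 6 samples (columns), as log2(TPM + 1), with grey for values listed at 0. Only the Cajal body genes SCARNA13, SCARNA9 and SCARNA7 have a value in every column, and TM replicate 3 has 19 grey cells.

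Single values can be compared where annotated genes share a length, since equal TPM in 1 sample then stands for equal estimated counts. For members shorter than 150 nt with 1 transcript, 16 values had another gene of the same length above 0 in the same sample. Of these, 5 stood at a whole-number ratio of up to 5 to that gene, within 0.1%. SNORA11F (128 nt) and the vault RNA VTRNA2-1 were both listed at 42.09 TPM in TM replicate 1. SCARNA8 (131 nt) was listed at 30.12 TPM in TC replicate 3, where ENSG00000270103 of the same length was listed at 60.24. In TM replicate 2 the same pair stood at 32.96 and 98.89 TPM. SNORA10 and its copy SNORA10B were both at 4.87 TPM in TM replicate 3, while in TC replicate 3 they were at 19.6 and 0 TPM. Whether reads were shared by these copies was not tested. The depth of the samples is unknown from TPM, and no counting interval could be given.

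Summed over the members, the level was 227.01, 165.02 and 606.75 TPM in TC replicates 1 to 3 and 242.02, 380.44 and 118.22 TPM in TM replicates 1 to 3. The zones overlapped, and the members made up between 0.0119% and 0.0607% of all TPM. The number of members above 0 was 15, 15 and 20 in the TC samples and 16, 22 and 12 in the TM samples. TC replicate 3 and TM replicate 2 had the highest sums and the most members, although they come from different zones. They shared 14 members above 0, the most of any pair of samples. With 20 and 22 members above 0 in them, a large overlap follows from these counts alone and is no evidence of likeness. They were the only samples with SCARNA14 and SCARNA8 above 0.

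The C/D sum was 9.96, 26.98 and 27.93 TPM in TC and 30.54, 46.44 and 0 TPM in TM. The H/ACA sum was 202.79, 101.5 and 292.29 TPM in TC and 157.99, 200.04 and 92.5 TPM in TM. The Cajal body sum was 14.26, 36.54 and 286.53 TPM in TC and 53.49, 133.96 and 25.72 TPM in TM. H/ACA members held most of the sum in 5 of the 6 samples by these values but only slightly more than the Cajal body members in TC replicate 3, where SCARNA14 alone, at 147.95 TPM, made up 24.4% of the sum of all members. In every class the ranges of TC and TM overlapped. TM replicate 3 was the sample with no C/D member above 0.

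**Figure D3:**
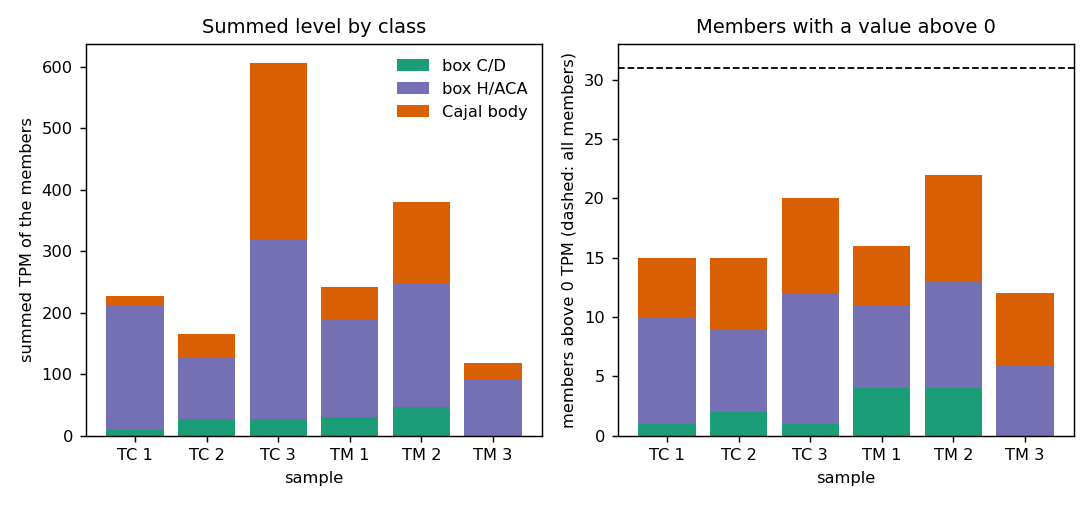
Summed TPM of the members (left) and number of members above 0 TPM out of 31 (right), stacked by class, for each TC and TM sample. TC replicate 3 and TM replicate 2 are the highest on both sides, and TM replicate 3 has no box C/D part.

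Other features of the libraries moved with some of these values. A list of skeletal muscle genes (11 measured) summed to 3.98 to 7.73 TPM in TC and to 185.45, 489.57 and 2.15 TPM in TM replicates 1 to 3, with all 11 genes above 0 in TM replicates 1 and 2, and ACTA1 at 53.73 and 164.62 TPM there and at 0.87 in TM replicate 3. A list of 8 fibroblast genes, COL1A1 the highest, summed to 65.4 to 227.32 TPM in TC and to 479.91, 1019.89 and 87.27 TPM in TM, while the fibroblast gene DCN was at 0 in 5 samples. The lists for endothelium, macrophages, adipocytes and erythroid cells spanned fewer TPM, with sums of 3.77 to 7.02, 95.27 to 108.5, 0.29 to 0.86 and 0.29 to 6.93 TPM over the 6 samples. For their level, the erythroid sums varied widely. CD68 held most of the macrophage sum, at 84.8 to 94.19 TPM. CSF1R (1.99 to 9.12 TPM) and LYZ (0.27 to 3.99 TPM) were highest in TM replicate 2, while ADGRE1 (7.92 to 10.49 TPM) was not. No step that parts mouse from human reads was described. VIM and CD44, markers of the line, were high in all samples, at 3797.38 to 5283.09 and 196.93 to 266.86 TPM, and ESR1, which the line lacks, stayed at or below 0.13 TPM. The deposited column of TM replicate 3 added up to 994381 TPM and the other 5 to 1000000, and in that replicate loci outside the annotation held 21.09 TPM against 1573.73 to 2643 TPM elsewhere. In bulk samples, fewer cells of a type and less RNA per cell cannot be told apart.

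limma on log2(TPM + 1) compared TC with TM over the genes that reached 1 TPM in 3 or more samples. Of the 31 members, 13 passed this filter (2 C/D, 6 H/ACA and 5 Cajal body members), and a member above 1 TPM only in one zone could pass only by differing, so counts and medians over these 13 are descriptions. No member differed at an adjusted p under 0.05 (0 of 13), where the background over all 13861 genes tested was 0.137%. At an unadjusted p under 0.05, 3 members differed (SNORD3A, SNORA53 and SCARNA9), against 16.2% of all genes. Of these, 2 were higher in TC, where the background was 1.93%, and 1 was lower, where it was 14.2%. The whole fit called 19 genes, while refits called 0 without TC replicate 3, 1 without TM replicate 1 and 2 without TC replicate 1. The members were more variable than other genes: their median standard error (SE) was 1.07 against 0.23 for all genes, and 11 of 13 were listed at 0 in some sample, against 2.16% of all genes tested.

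The TC and TM values of 2 tested members did not overlap (SNORA53 and SNORD3A, both higher in TC), against 3.28% of all genes higher in TC and 22.2% in either direction. The median difference (TC minus TM) over the 13 members was 0.63 on the log2 scale, with 8 higher and 5 lower in TC, and that over all genes was −0.14 (0.01 after quantile normalization and 0.05 after median-of-ratios rescaling). By class, the median difference was 0.20 for the C/D, 1.09 for the H/ACA and 0.46 for the Cajal body members. With a filter that took in all 31 members (above 1 TPM in at least 2 samples), again 0 differed at an adjusted p under 0.05, where the background over 14644 genes was 0.0478%. With that filter 6 differed at an unadjusted p under 0.05, against 16.3% of genes, and 15 were higher and 16 lower in TC. That filter is the rule that chose the members, and SNORA53, SNORA27, SNORA73A and SNORD91B among the 6 had values in 1 zone alone, so these counts too are descriptions. The median over all members was then −0.04, with medians of −1.08 for C/D, 0.26 for H/ACA and −0.04 for Cajal body members, so the H/ACA median alone was above 0 with both filters, though it was −0.13 without TM replicate 1.

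**Figure D4:**
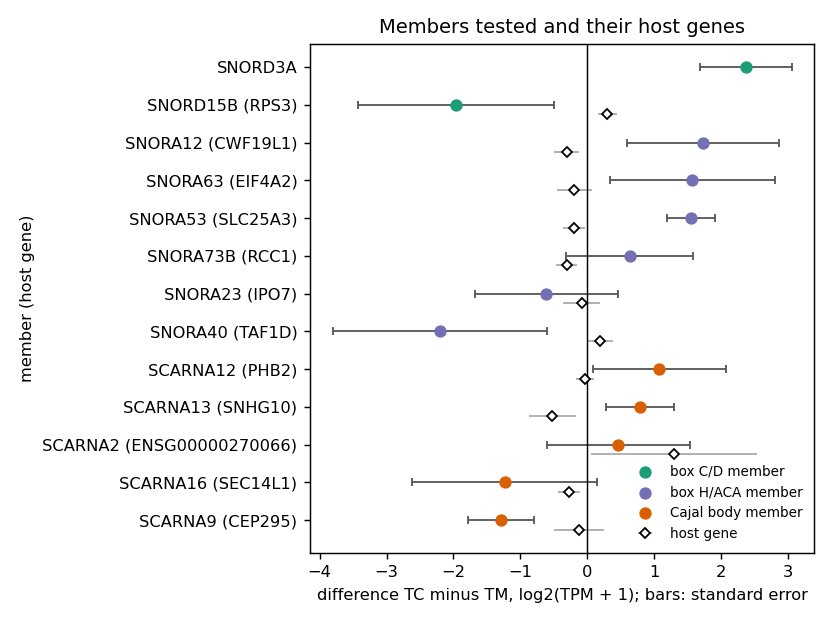
Difference between TC and TM (TC minus TM) in log2(TPM + 1) for the 13 members tested (filled points, bars are standard errors) and for their host genes (open diamonds with standard errors). The members lie between −2.20 and 2.37 with wide bars, and all hosts but that of SCARNA2 lie within 0.53 of 0.

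Among the C/D members, SNORD3A, the U3 RNA that is needed for early cleavages of the ribosomal precursor, stood at 9.96, 13.59 and 27.93 TPM in TC and at 5.17, 4.44 and 0 TPM in TM. Every TC value lay above every TM value. The difference was 2.37 on the log2 scale (SE 0.68, adjusted p = 0.148 by limma). Without TM replicate 3, where it was listed at 0, the difference was 1.52.

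SNORD3B-2, another U3 gene on chromosome 17, was listed at 0 in TC and stood at 1.5, 1.64 and 0 TPM in TM. Its shortest transcript matched that of SNORD3A at 216 of 217 bases, and reads that fit both genes could have been split between them, so the values of both are uncertain. SNORD15B, the U15B RNA, which guides methylation of large subunit rRNA, stood at 0, 13.39 and 0 TPM in TC and at 21.17, 37.77 and 0 TPM in TM. SNORD91B stood at 2.70, 2.59 and 0 TPM in TM and was listed at 0 in TC.

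The C/D members thus did not move one way. SNORD3A was above 0 in all TC samples, while SNORD3B-2 and SNORD91B had values in TM replicates 1 and 2 alone, as did the H/ACA member SNORA71B with 1.22 and 8.41 TPM. These are the samples in which the muscle and fibroblast lists were highest, and the part of those tissues in these values was not tested. SNORD15B differed by −1.97 (SE 1.46, adjusted p = 0.58 by limma), or by −3.59 without TM replicate 3, and its values in the zones overlapped.

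Among the H/ACA members, SNORA53 stood at 1.32, 1.13 and 4.12 TPM in TC and was listed at 0 in all 3 TM samples. It had the smallest adjusted p of the members (difference 1.55, SE 0.36, adjusted p = 0.0972 by limma, 0.0771 to 0.259 over 14 fits), and passed the filter through TC alone. At 249 nt SNORA53 is long for its class, and its TC values were low.

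The U17 genes SNORA73A and SNORA73B, whose RNA is needed for cleavage of the ribosomal precursor, share 192 bases in an alignment of 206 and 204 nt. SNORA73A stood at 0, 6.62 and 27.94 TPM in TC and was listed at 0 in TM. SNORA73B stood at 0, 7.65 and 9.55 TPM in TC and at 0, 3.74 and 4.16 TPM in TM. Both were listed at 0 in TC replicate 1 and TM replicate 1, and reads could have been split between the copies. SNORA73B differed by 0.63 (SE 0.95, adjusted p = 0.804 by limma).

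SNORA63, the E3 RNA and the H/ACA member with the highest mean, stood at 21.03, 22.39 and 56.27 TPM in TC and at 0, 41.62 and 25.53 TPM in TM. SNORA12 stood at 15.33, 12.92 and 65.34 TPM in TC and at 20.43, 18.24 and 0 TPM in TM. SNORA23 stood at 10.22, 0 and 27.38 TPM in TC and at 6.83, 18.99 and 6.32 TPM in TM. For each of these 3 members, 5 of 6 samples were above 0, the sixth was at 0, and the zones overlapped.

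The sample at 0 set much of their fitted differences. SNORA63 differed by 1.57 (SE 1.23), but by −0.12 without TM replicate 1, where it was listed at 0. SNORA12 differed by 1.73 (SE 1.14), and by 0.28 without TM replicate 3. SNORA23 differed by −0.62 (SE 1.07), but by 0.77 without TC replicate 2.

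SNORA40 stood at 0, 0 and 16.95 TPM in TC and at 0, 55.92 and 29.69 TPM in TM, a difference of −2.20 (SE 1.60, adjusted p = 0.57 by limma) that ranged from −4.00 without TM replicate 1 to −1.51 without TC replicate 1 or 2. SNORA27 stood at 33.76, 0 and 34.42 TPM in TC and was listed at 0 in TM. SNORA40 had the largest mean in TM of the members tested, and SNORA27 was above 0 in TC alone, though not in each TC sample.

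The remaining H/ACA members were each above 0 in exactly 2 samples. SNORA22 had 50.46 TPM in TC replicate 1 and 21.93 in TM replicate 3, and SNORA48 had 40.03 in TC replicate 2 and 29.06 in TM replicate 1. SNORA3A, SNORA51, SNORA57, SNORA10, SNORA11F, SNORA74B and SNORA8 likewise had 1 value in each zone, while both values of SNORA71B were in TM. A member with 1 value above 0 in each zone overlaps between the zones by construction.

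Among the Cajal body members, SCARNA9, which carries guides for the U2 spliceosomal RNA, stood at 1.35, 0.39 and 0.45 TPM in TC and at 1.11, 2.77 and 7.63 TPM in TM. The difference was −1.29 (SE 0.49, adjusted p = 0.255 by limma), and −0.75 without TM replicate 3. One TM value lay below the highest TC value, and the highest level was in TM replicate 3. SCARNA7, also above 0 everywhere, stood at 0.54, 0.47 and 1.08 TPM in TC and at 0.67, 0.66 and 3.16 TPM in TM, again highest in TM replicate 3.

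SCARNA13 stood at 4.40, 1.70 and 7.28 TPM in TC and at 1.46, 4.41 and 0.77 TPM in TM. SCARNA12 stood at 6.10, 5.03 and 26.88 TPM in TC and at 16.21, 6.42 and 0 TPM in TM. Both were highest in TC replicate 3 and lowest in TM replicate 3. SCARNA13 differed by 0.79 (SE 0.51) and SCARNA12 by 1.07 (SE 1.00), the latter by −0.09 without TM replicate 3.

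SCARNA2, a guide for the U2 spliceosomal RNA, stood at 1.87, 25.39 and 2.43 TPM in TC and at 0, 9.95 and 8.04 TPM in TM. SCARNA16 stood at 0, 3.56 and 70.34 TPM in TC and at 34.04, 21.15 and 4.46 TPM in TM. SCARNA14 had 147.95 TPM in TC replicate 3 and 54.33 in TM replicate 2, and SCARNA8 had 30.12 and 32.96 TPM in the same samples. A single TC sample was far above the others for SCARNA2 (TC replicate 2) and SCARNA16 (TC replicate 3), and each of these 4 members overlapped between the zones. SCARNA2 overlaps an exon of the gene ENSG00000270066. That gene stood at 8.58, 0 and 17.77 TPM in TC and at 11.3, 0 and 0 TPM in TM. Reads that fit both could have been split between SCARNA2 and that gene, so the values of both are uncertain.

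SCARNA6 stood at 1.31 and 1.66 TPM in TM replicates 2 and 3 and was listed at 0 elsewhere. SCARNA2 differed by 0.46 (SE 1.07), but by −0.56 without TC replicate 2 and −0.64 without TM replicate 1. SCARNA16 differed by −1.23 (SE 1.38) on the log2 scale although its mean TPM was higher in TC (24.6) than in TM (19.9), and by 0.16 without TC replicate 1, where it was listed at 0. In the order of mean levels over the 6 samples, SCARNA14 (33.7 TPM), SNORA63 (27.8), SCARNA16 (22.3), SNORA12 (22.0) and SNORA40 (17.1) came first, and SCARNA6 (0.495), SNORD3B-2 (0.523) and SNORD91B (0.882) last. The ranges of neighbours in this order overlapped, since each of the 8 members named here was listed at 0 in at least 1 sample, and SCARNA14 in 4.

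SNORD3A, SNORA12 and SCARNA12 were above 0 in 5 samples and listed at 0 in TM replicate 3 alone. That sample had the fewest members above 0 (12) and the lowest summed TPM, but the highest levels of SCARNA9 and SCARNA7. With TM replicate 3 set aside, the rule of more than 1 TPM in 2 samples kept 27 members, and SCARNA6, SCARNA7, SNORA10 and SNORA22 were lost.

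Most members lie inside other genes. Where several genes on the same strand contained a member, the longest by span was taken as its host, and shorter ones were not examined. Of the 31 members, 28 had a host gene on the same strand, 17 in introns without touching an exon of it and 11 overlapping an exon of some host transcript. SNORD3A, SNORD3B-2 and SNORA11F had none. The 26 distinct hosts were all tested and 22 were protein coding, with mean levels from 2.03 TPM for CEP295, the host of SCARNA9, to 4798.95 TPM for RPS2, the host of SNORA10. Ribosomal protein genes host SNORA10, SNORA27 (RPL21), SNORA3A (RPL27A) and SNORD15B (RPS3), and the translation factor gene EIF4A2 hosts SNORA63.

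No host differed between the zones at an adjusted p under 0.05 (0 of 26, against 0.137% of all genes), 4 had an unadjusted p under 0.05 (16.2% of all genes), and 7 were higher and 19 lower in TC, with a median difference of −0.18, close to the −0.14 of all genes. Of the 12 tested members with a host, 4 differed in the same direction as the host, SCARNA2 with its uncertain values among them. SNORA53 had a difference of 1.55, while its host SLC25A3, the mitochondrial phosphate carrier, stood at 1431.54, 1476.17 and 1662.95 TPM in TC and at 2141.52, 1691.37 and 1478.25 TPM in TM, a difference of −0.20 (SE 0.16, 0.0083 after median-of-ratios rescaling). SNORA53 overlaps an exon of a transcript of this abundant gene, and reads of that transcript could not be told apart from those of SNORA53. The same limit applies to SNORA10, SNORA27, SNORA3A, SNORA8, SNORA40, SNORA51, SNORA57, SNORA63, SCARNA12 and SCARNA2, which also overlap a host exon. Among candidates of 125 nt or more, the hosts of members had a median mean level of 44.7 TPM, those of candidates at 0 in all samples one of 22.8, and those of candidates above 0 that were no members one of 56.4.

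The genes of the proteins that build these particles were read at the RNA level. None of the 4 C/D core protein genes passed at an adjusted p under 0.05. The core methyltransferase gene FBL had a TC mean of 474.5 ± 51.0 TPM and a TM mean of 510.2 ± 50.8 TPM (SD, n = 3 each), and NOP58 and SNU13 differed by −0.14 and −0.10. NOP56, a C/D core protein gene that also hosts SNORA51, stood at 136.19, 131.24 and 169.63 TPM in TC and at 232.84, 263.92 and 226.12 TPM in TM, without overlap (difference −0.73, SE 0.14, adjusted p = 0.0843 by limma). Its guest SNORA51 had 28.92 TPM in TC replicate 3 and 35.86 TPM in TM replicate 1 and was at 0 elsewhere.

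None of the 4 H/ACA core protein genes passed either, and DKC1, the pseudouridine synthase, differed by −0.45 (SE 0.18, adjusted p = 0.258 by limma), and by −0.24 after median-of-ratios rescaling. GAR1, NHP2 and NOP10, the other core proteins of the class, differed by 0.22, −0.06 and 0.04. None of 10 assembly factor genes passed, nor did any of 13 Cajal body and nucleolar trafficking genes or of 10 genes of intron debranching and end processing. The lists held 1, 1 and 2 genes with an unadjusted p under 0.05: the helicase gene RUVBL1, the nucleolar gene TCOF1, and EXOSC10 and ZCCHC8 of nuclear RNA decay, with differences of −0.33, −0.63, −0.36 and −0.69. Over all genes tested, 16.2% had an unadjusted p under 0.05. COIL, the Cajal body scaffold, had a TC mean of 7.88 ± 0.84 TPM and a TM mean of 8.27 ± 0.86 TPM (SD, n = 3 each). Among 21 genes of RNA polymerase I and of the nucleolus, 1 passed, lower in TC: TAF1C, a subunit of the polymerase I selectivity factor, at 12.06, 12.02 and 10.3 TPM in TC and at 26.73, 28.39 and 35.14 TPM in TM (difference −1.31, SE 0.17, adjusted p = 0.0429 by limma). TAF1C was lower in TC in all 18 fits but passed in 5 of them, with adjusted p-values from 0.0273 to 0.217, and it did not pass when any 1 sample was left out. With an unadjusted p under 0.05 that list held 7 genes (TAF1C, POLR1A, UBTF, NAT10, UTP4, DHX37 and BOP1), all with differences below 0, where 14.2% of all genes were lower in TC at that threshold.

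Other small structured RNAs were read from the same libraries. Of 33 such rows, 14 were listed at 0 in all samples and 13 were tested. Of the 13, 0 differed at an adjusted p under 0.05 (0.137% of all genes) and 4 had an unadjusted p under 0.05, all higher in TC (1.93% of all genes). These were RNU2-2P, RNU4-1, RNU4-2 and TERC. RNU4-2, a U4 spliceosomal RNA gene of 141 nt, stood at 172.49, 181.98 and 390.97 TPM in TC and at 127, 45.13 and 17.61 TPM in TM, without overlap (difference 2.27, SE 0.63, adjusted p = 0.138 by limma). Of the 13, 11 were higher and 2 lower in TC, with a median difference of 2.12 (−0.14 over all genes), as a description only, since RNU2-2P, listed at 0 in TM, passed the filter through TC alone. The telomerase RNA gene TERC, an RNA with an H/ACA domain, stood at 9.41, 6.33 and 12.91 TPM in TC and at 7.40, 3.33 and 0 TPM in TM. RNA of RN7SK, the 7SK regulator of transcription elongation, was at 83.9, 51.63 and 89.94 TPM in TC and at 38.58, 34.42 and 157.71 TPM in TM, highest, like SCARNA9 and SCARNA7, in TM replicate 3. U4 and U1 genes occur in several near-identical copies, and their values share the uncertainty of the U3 genes.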

How the data were processed

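The authors deposited a matrix of TPM per gene. By their methods, SeqPrep and Sickle cleaned the read pairs, HISAT2 aligned them, StringTie assembled transcripts on the reference and RSEM gave gene levels. The labels name hg38. The annotation release and tool versions are not given in the sources used here. TPM keeps no depth, so the DESeq2 model used by the authors could not be run. The number of unmapped value columns was 0.

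Groups and replicate numbers came from the sample titles. Values were transformed as log2(TPM + 1). Genes of at least 1 TPM in at least 3 of 6 samples were compared (TC minus TM) with limma 3.58.1 in R 4.3.3 (trended empirical Bayes, two-sided, no covariate), with Benjamini-Hochberg adjustment over all 13861 genes. This scale understates changes of low genes. The 259 unannotated loci were left out. Code was tested on simulated data. Whether replicates are separate mice is stated only for the groups, so p-values measure the spread between these samples.

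Positions, lengths (longest transcript), hosts and sequences (shortest transcript) came from GENCODE 29, which held 552 of 553 candidates. Alignment used orientation mode, but strand use in counting was not stated. Genes were named by rule: members that passed, up to 6 tested members of the highest mean per class, members without overlap, all SCARNA members, those at the threshold, RNAs of precursor cleavage, core proteins, and pathway genes with an unadjusted p under 0.05. Other members and hosts were added after their values were seen. Members, lists and alternatives were chosen with earlier results of these data known.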

Additional observations from a re-analysis of the deposited data

How the results depend on the processing

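In all 18 fits, 0 members differed at an adjusted p under 0.05, with smallest adjusted p-values from 0.0771 (without mitochondrially encoded genes) to 0.348 (without TC replicate 2). The count over all genes was less stable. It was 19, against 7 with a pseudocount of 0.1, 1 without a filter, 7 with more than 1 TPM in 2 samples, 4 with quantile normalization, 6 with median-of-ratios rescaling, 12 without the trend, 47 with robust estimation and 0 to 17 with 1 sample left out. Whether replicate numbers pair the samples was not stated, and the main fit used no pairing. Deviations of same-numbered samples correlated at 0.21, −0.12 and −0.17, and not every sample correlated best with its own number. With 3 samples per group, these correlations cannot decide whether the samples are paired. With replicate number as a block, 1 gene and 0 members passed. The median over all genes moved from −0.14 to 0.01 with quantile normalization and 0.05 with median-of-ratios rescaling.

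With 1 sample left out, the median difference ranged from −1.03 to 2.84 for the C/D members (1 or 2 members left) and from −0.64 to 1.09 for the Cajal body members. The H/ACA median ranged from −0.13 (without TM replicate 1) to 1.72. Directions reversed for SNORA73B (−0.14 to 1.72) and SNORA63 (−0.12 to 2.58) without TM replicate 1, for SNORA23 (−1.64 to 0.77) without TC replicate 2, for SCARNA12 (−0.091 to 1.96) without TM replicate 3, for SCARNA16 (−2.92 to 0.16) without TC replicate 1, and for SCARNA2 (−0.64 to 1.09) without TC replicate 2 or TM replicate 1. In each case the fit rests on fewer samples and, for members at 0 in 1 sample, that zero or the highest value was removed. No other setting reversed a member, while the host SLC25A3 moved to 0.0083 with median-of-ratios rescaling. SNORA53 could not be fitted without a TC sample, as it then fails the filter. Depth is unknown, so a value of 0 is no evidence of absence.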
